A study of Saccharomyces cerevisiae with 6 samples.

Results

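The genes described are those of the proteasome of Saccharomyces cerevisiae, compared between a flor strain and a wine strain. Members were taken by symbol, as every row whose platform symbol is PRE, PUP, RPN or RPT followed by a number, or is SCL1, ECM29, UMP1, BLM10, NAS2, NAS6, HSM3, ADD66 or IRC25. Of 42 such names with a known role, 37 had a row, each with a single probe, among 6226 features in all. The names BLM10, ADD66, IRC25, NAS2 and RPN14 matched no row and were not analysed here. The proteasome is the protease complex of the cytosol and nucleus that degrades proteins marked with ubiquitin. Its core particle is a barrel of alpha and beta rings with the proteolytic sites inside, and its regulatory particle, made of a base with a ring of ATPases and a lid, binds, deubiquitinates and unfolds the substrate. In yeast the transcription factor Rpn4 activates most of these genes and is itself degraded quickly by the proteasome, which forms a feedback loop.

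Flor yeasts grow as a film on wine after fermentation, whereas wine yeasts carry the fermentation out. The flor samples are 3 cultures of P3_Kan, the haploid strain P3-D5 of mating type alpha with a KanMx resistance cassette. The wine samples are 3 cultures of K1_Kan, the haploid strain K1-280-2B of mating type a, whose Kan suffix the labels do not explain. Strain, mating type and any effect of a cassette therefore cannot be told apart, and each strain is a single isolate. All 6 cultures were shaken at 28 °C in a synthetic wine-like medium to an optical density of 1 at 600 nm, conditions under which, per the labels, no film forms. RNA was labelled with Cy3 and read on 1-colour arrays, and every level below is the authors' deposited log2 intensity of a probe.

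Sample medians lay between 8.33 and 8.35, and replicates correlated across features at 0.9971 to 0.9975 in the wine strain and at 0.9877 to 0.9971 in the flor strain, where the pairs with flor replicate 1 had the lowest values (0.9877 and 0.9903). The strains' mating types were as labelled: all 5 a-cell markers were lower in the flor strain (5.79 to 7.59 against 9.08 to 10.86 in the wine strain), and all 4 alpha-cell markers were higher (10.13 to 13.40 against 5.62 to 6.95). The number of arrays, 3 a strain, limits the precision, and the p-values measure the spread among these cultures. Whether the strains' sequences differ under a probe was not analysed here.

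Proteasome genes were lower in the flor strain or did not pass the test, and none was higher. Of the 37 members, 14 (37.8%) were lower at an adjusted p under 0.05 (limma with Benjamini-Hochberg adjustment over all 6226 features), against 23.6% of all features. None of the 37 was higher, against 20.5% of all features. The median strain difference of the members, flor minus wine, was −0.18 on the log2 scale, and that of all features was −0.02. The difference was negative for 29 members and positive for 8, against 3267 and 2959 of all 6226 features. Among the members it ran from −1.65 for PRE8 to 0.21 for PRE7. Most changes were small: without PRE8 and RPN4, the 35 other genes spanned −0.55 to 0.21. In bulk RNA of this kind, fewer cells with a transcript and less of it per cell cannot be told apart.

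The values of the 3 flor samples all lay under those of the 3 wine samples for 15 members (the 14 called genes and PRE4), where 30.4% of all features did so. They all lay above for 2 members, PRE7 and NAS6, where 25.7% of all features did so. The other 20 members overlapped between strains. The labels place flor replicate 3 and wine replicate 2 on array number 1 and the other 4 samples on array number 2. With array number as a block, 14 members were lower, of which 13 were among the 14 above: SCL1 dropped out (adjusted p = 0.053) and PRE1 came in (adjusted p = 0.046). On array number 2 alone 3 of 37 were lower (PRE8, RPT6 and RPT4) and the median was −0.18. That count was a smaller share than the 11.6% of all features lower in this setting. On array number 1, which has a single sample a strain and no test, the median was −0.21. All 14 called members had a negative difference there. That sign was fixed in advance, since every flor value of these genes lay under every wine value. Of the samples left out in turn, each of the 3 wine replicates moved the number of lower members by over 1.5 times, to 9. The share of all features lower also fell, to 17.3% to 17.6%.

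**Figure D1:**
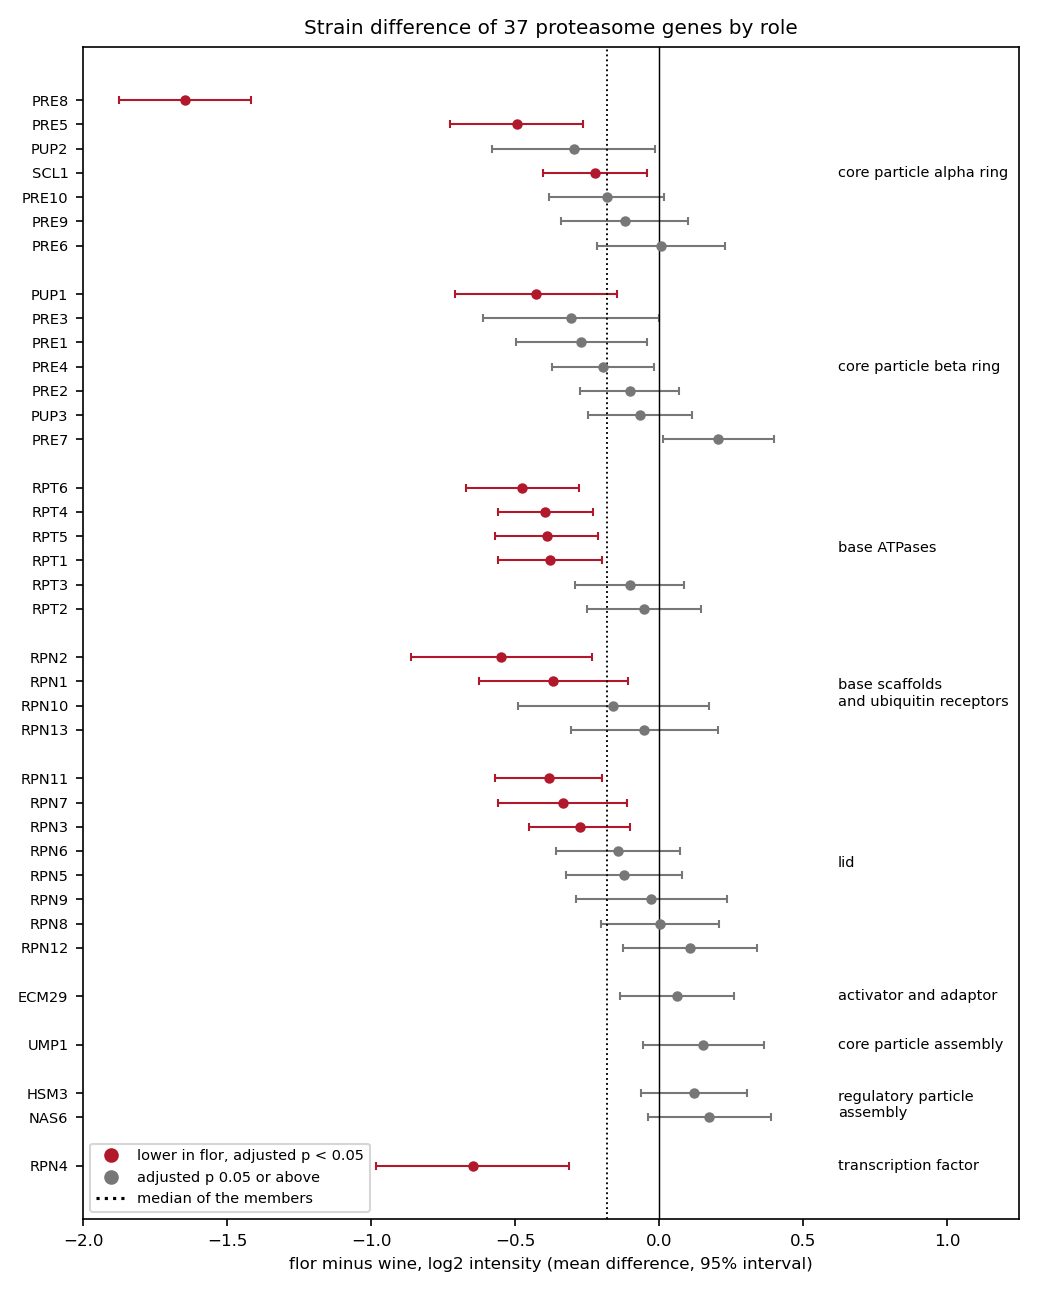
Strain difference of each of the 37 proteasome genes, grouped by role. The horizontal axis gives flor minus wine in log2 intensity, points are mean differences over 3 samples a strain, bars are 95% intervals of the limma fit, red marks the 14 genes past the threshold, and the dotted line is the members' median of −0.18. PRE8, at −1.65, lies apart from all others, and the 4 genes below the lid subunits, from ECM29 to NAS6, lie to the right of 0.

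RPN4, the gene of the transcription factor of the family, was lower in the flor strain. Its log2 intensities were 11.17, 11.78 and 11.44 in flor replicates 1 to 3 and 12.23, 12.12 and 11.98 in wine replicates 1 to 3. The strains did not overlap, and flor replicate 1 was the lowest sample. The fold was 1.57 towards lower (95% interval 1.24 to 1.97, limma adjusted p = 0.0073), the second largest decrease among the members, and 6.91% of all features had a difference as low or lower. The differences were −0.69 on array number 1 and −0.63 on array number 2, where it did not pass (adjusted p = 0.094).

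Among 7 genes known to act on Rpn4 or on its gene, 1 was lower (14.3%, under the 23.6% of all features) and none was higher. UBR2, the ubiquitin ligase that marks Rpn4 for degradation, was 1.31-fold lower in the flor strain, at 7.08, 7.31 and 7.23 against 7.49, 7.70 and 7.60 (limma adjusted p = 0.0091; 0.11 on array number 2 alone). Its partner MUB1 differed by 0.23 (adjusted p = 0.069) and passed as higher without flor replicate 1 (adjusted p = 0.014). RAD6, the conjugating enzyme of that ligase, differed by 0.10 (adjusted p = 0.43). Among transcription factors that bind the RPN4 promoter, the heat shock factor gene HSF1 differed by −0.28 (adjusted p = 0.080) and passed as lower without flor replicate 2 (adjusted p = 0.045). The multidrug resistance regulators PDR1 and PDR3 differed by 0.02 and 0.10, and the oxidative stress regulator YAP1 by −0.09 (adjusted p of 0.34 to 0.83). With a trend with coding length removed, MUB1 (0.34, adjusted p = 0.0060) and PDR3 (0.24, adjusted p = 0.022) passed as higher.

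The alpha ring of the core particle forms the gate through which substrates enter. There 3 of 7 genes were lower (42.9%, against 23.6% of all features) and none was higher (median −0.22). PRE8 stood apart, at 9.92, 9.80 and 9.58 in the flor samples and 11.39, 11.50 and 11.35 in the wine samples. The gap between the strains was far wider than the spread within either. PRE8 was 3.13-fold lower (2.67 to 3.67, limma adjusted p = 3.6e-06), and 47 of the 6226 features (0.755%) had a difference as low or lower. Its differences were −1.92 on array number 1 and −1.51 on array number 2, and the upper end of its 95% interval, −1.42, lay under the lower end of the interval of every other member, of which RPN4 had the lowest (−0.98).

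PRE5 was 1.41-fold lower (1.20 to 1.65, limma adjusted p = 0.0044), at 10.52, 10.88 and 10.71 against 11.17, 11.27 and 11.15. The strains were clear of each other. SCL1 was lower by the smallest margin of any called gene, 1.17-fold (1.03 to 1.32, adjusted p = 0.048), at 11.76, 11.78 and 11.69 against 12.05, 11.88 and 11.97. SCL1 lost its call with array number as a block (adjusted p = 0.053) and without flor replicate 2 (0.067) or 3 (0.14) or wine replicate 1 (0.18), 2 (0.059) or 3 (0.13). It also lost the call with the replicate block (0.056), with an intensity trend and robust variance (0.11), and without the dimmest 25% (0.060) or 50% (0.072) of features. PUP2 had 10.77, 10.43 and 10.28 in the flor samples and 10.84, 10.69 and 10.84 in the wine samples, with flor replicate 1 inside the wine range. It differed by −0.30 (adjusted p = 0.083) and passed without flor replicate 1 (adjusted p = 0.00088), with the replicate block (0.043) and with the length trend removed (0.019). PRE10 differed by −0.18 (adjusted p = 0.13) and also passed without that replicate (adjusted p = 0.020) and with the length trend removed (0.048). PRE9, the alpha subunit that yeast can live without, differed by −0.12 (adjusted p = 0.35). PRE6, which can take the place of Pre9 in the ring, had the smallest difference of the ring, 0.01 (95% interval −0.22 to 0.23), at 11.54, 11.39 and 11.40 against 11.62, 11.38 and 11.32. The flor values of PRE6 all lay within the wine range.

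The beta ring carries the proteolytic sites. There 1 of 7 genes was lower (14.3%, under the 23.6% of all features) and none was higher (median −0.19). That gene was PUP1, which encodes the subunit with trypsin-like activity. It had 9.98, 10.48 and 10.36 in the flor samples and 10.73, 10.69 and 10.67 in the wine samples. The wine values were nearly equal, and flor replicate 1 was the lowest by far. PUP1 was 1.35-fold lower (1.11 to 1.63, limma adjusted p = 0.021), and it lost the call without wine replicate 1 (0.070), 2 (0.066) or 3 (0.058). Without flor replicate 1 its difference was −0.28, against −0.43 with it. The genes of the other catalytic subunits did not pass. PRE3, with caspase-like activity, had 10.98, 11.39 and 10.97 against 11.22, 11.53 and 11.50, which overlap, and differed by −0.31 (adjusted p = 0.095). It passed without flor replicate 2 (adjusted p = 0.014) and with the replicate block (0.029). PRE2, with chymotrypsin-like activity, differed by −0.10 (95% interval −0.27 to 0.07).

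Of the noncatalytic beta subunits, PRE1 had 10.65, 10.42 and 10.35 in the flor samples and 10.77, 10.62 and 10.82 in the wine samples, and differed by −0.27 (adjusted p = 0.057). The strains overlapped only through flor replicate 1, and without that sample PRE1 passed (adjusted p = 0.0032). It also passed with either block (0.046 for array number, 0.041 for replicate), with centring on the median (0.046) and with the length trend removed (0.0036). PRE4 differed by −0.19 (adjusted p = 0.072) with separate strains, and passed with the length trend removed (adjusted p = 0.042). PUP3 had the smallest difference of the ring, −0.07, at 12.10, 12.03 and 11.99 against 12.06, 12.20 and 12.06. PRE7 had the highest difference of all 37 members, 0.21 (95% interval 0.01 to 0.40, adjusted p = 0.081), with every flor value above every wine value.

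**Figure D2:**
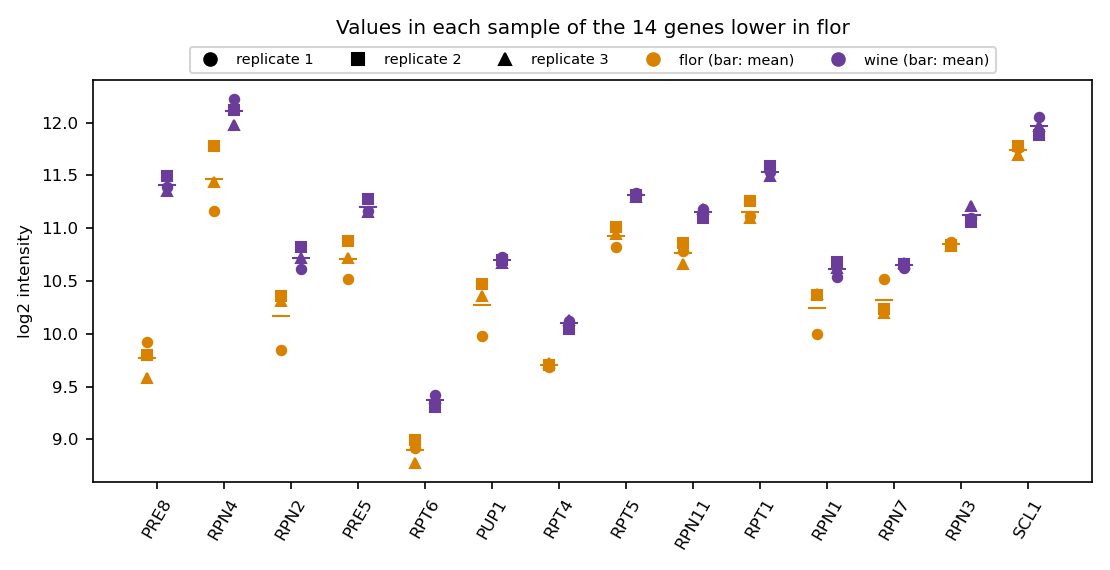
Log2 intensity in each sample of the 14 genes lower in the flor strain, ordered from the largest difference (PRE8) to the smallest (SCL1). Orange points are flor samples, purple points wine samples, shapes give the replicate number and short bars the means of 3. For each gene all flor points lie below all wine points, and flor replicate 1 is the lowest flor sample for 7 of the 14. Levels of different genes come from different probes and are not comparable.

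In the base of the regulatory particle, 4 of the 6 ATPase genes were lower (66.7%, against 23.6% of all features) and none was higher (median −0.38). These proteins form the ring that unfolds substrates and threads them into the core. RPT6 had 8.92, 8.996 and 8.77 in the flor samples and 9.42, 9.30 and 9.39 in the wine samples, and was 1.39-fold lower (1.21 to 1.59, limma adjusted p = 0.0022). RPT4 had 9.69, 9.70 and 9.72 against 10.13, 10.04 and 10.13, and was 1.31-fold lower (1.17 to 1.47, adjusted p = 0.0024). RPT5 had 10.82, 11.01 and 10.95 against 11.34, 11.31 and 11.30, and was also 1.31-fold lower (1.16 to 1.48, adjusted p = 0.0041). All these strains were separate, and the replicates of RPT4 were among the tightest of the family (SD 0.02 for the flor samples and 0.05 for the wine samples). RPT1 was 1.30-fold lower (1.15 to 1.47, adjusted p = 0.0049). The 4 called genes thus lay close together, between −0.47 and −0.38 on the log2 scale, and all kept their calls when any single sample was left out.

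The other ATPase genes overlapped between strains. RPT2 had 10.82, 10.86 and 10.65 in the flor samples and 10.74, 10.86 and 10.88 in the wine samples, a difference of −0.05 (95% interval −0.25 to 0.15). RPT3 differed by −0.10 (−0.29 to 0.09). Rpt1 pairs with Rpt2, Rpt3 with Rpt6 and Rpt4 with Rpt5 when the ring assembles, so a called gene stood beside an uncalled gene in the first and the second of these pairs, and both genes were called in the last. Whether the differences of RPT2 and RPT3 differ from those of the called genes was not tested.

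Of the 4 remaining base genes, 2 were lower, the scaffold genes RPN2 and RPN1, against 23.6% of all features. None was higher, against 20.5% of all features, and the median of the 4 genes was −0.26. So few genes say little about a share. RPN2 had 9.84, 10.36 and 10.31 in the flor samples and 10.61, 10.83 and 10.72 in the wine samples, and was 1.46-fold lower (1.18 to 1.81, limma adjusted p = 0.012). RPN1, whose product also docks the shuttle proteins that deliver ubiquitinated substrates, had 9.99, 10.36 and 10.38 against 10.53, 10.68 and 10.62, and was 1.29-fold lower (1.08 to 1.54, adjusted p = 0.028). In both genes flor replicate 1 was the lowest sample and the strains did not overlap. RPN2 did not pass when wine replicate 2 was left out (adjusted p = 0.055), and RPN1 without wine replicate 1 (0.053), 2 (0.10) or 3 (0.083) or with the length trend removed (−0.23, adjusted p = 0.059). Without flor replicate 1 the difference of RPN1 was −0.24, against −0.37 with it. The ubiquitin receptor genes RPN10 and RPN13 did not pass. RPN10 had the largest standard error of these 4 genes (0.146), at 10.95, 11.47 and 11.22 against 11.20, 11.60 and 11.31 (difference −0.16, adjusted p = 0.42). RPN13 had 9.50, 9.18 and 9.10 against 9.36, 9.22 and 9.36 (difference −0.05, adjusted p = 0.75). In RPN13 the flor samples ran both above and below the wine samples.

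In the lid, 3 of 8 genes were lower (37.5%, against 23.6% of all features) and none was higher (median −0.13). RPN11, the metalloprotease that removes ubiquitin from the substrate as it enters, had 10.78, 10.86 and 10.66 in the flor samples and 11.18, 11.09 and 11.18 in the wine samples. It was 1.30-fold lower (1.15 to 1.48, limma adjusted p = 0.0053). RPN8, whose product is the direct partner of Rpn11, was at 11.35, 11.16 and 11.19 against 11.27, 11.11 and 11.30 and differed by 0.00 (95% interval −0.20 to 0.21). The partners thus fell on either side of the threshold, and the difference between them was not tested.

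The other called lid genes encode structural subunits. RPN7 had 10.52, 10.24 and 10.20 against 10.63, 10.66 and 10.67, and was 1.26-fold lower (1.08 to 1.47, adjusted p = 0.023). RPN3 had 10.87, 10.85 and 10.83 against 11.10, 11.06 and 11.21, and was 1.21-fold lower (1.07 to 1.37, adjusted p = 0.018). The strains of both were separate, but neither call held in every fit with a single sample left out. Over those fits the difference ranged from −0.44 to −0.27 for RPN7 and from −0.31 to −0.23 for RPN3. RPN7 lost its call without flor replicate 2 (0.062) or 3 (0.083) or wine replicate 1 (0.061), 2 (0.072) or 3 (0.076). RPN3 lost it without flor replicate 3 (0.056) or wine replicate 1 (0.053) or 3 (0.083) or with the length trend removed (0.079). RPN6, RPN5, RPN9 and RPN12 differed by −0.14, −0.12, −0.03 and 0.11 (adjusted p of 0.26 to 0.87), with overlapping strains.

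The genes that serve assembly or link the particles, 4 in number, had positive differences, and none of them passed the test. UMP1 encodes a chaperone of core particle maturation that the finished proteasome destroys. It had 11.72, 11.45 and 11.52 in the flor samples and 11.34, 11.47 and 11.42 in the wine samples (difference 0.15, limma adjusted p = 0.21). NAS6 encodes a base chaperone that binds Rpt3, and it had 11.23, 10.97 and 10.93 against 10.87, 10.87 and 10.87 (difference 0.17, adjusted p = 0.17). HSM3, another base chaperone gene, had 7.85, 7.65 and 7.74 against 7.63, 7.59 and 7.66 (difference 0.12, adjusted p = 0.26). ECM29, whose product ties the core to the regulatory particle, had 9.21, 9.05 and 9.05 against 8.95, 9.13 and 9.05 (difference 0.06, adjusted p = 0.61). Flor replicate 1 was the highest sample for each of these 4 genes, and the difference of UMP1 was −0.01 once a trend with coding length was removed. That of ECM29 was −0.085 on array number 1 and 0.0055 without flor replicate 1.

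Flor replicate 1 departed from the other flor samples in both directions within the family. It was the highest flor sample for 19 members and the lowest for 12, against 43.1% and 42.1% of all features. Among the 14 called members it was the lowest for 7 and the highest for 3. Its deviations from the mean of the other flor samples ran from −0.49 for RPN2 to 0.41 for PUP2. Without it, 17 members were lower and none was higher, against 28.5% and 24.1% of all features. The median deviation of the members from their own means over the 6 samples was −0.09, −0.07 and −0.13 in flor replicates 1 to 3. It was 0.11, 0.08 and 0.11 in wine replicates 1 to 3. These medians of the strains did not overlap, while the same medians over all features lay between −0.02 and 0.01. In flor replicate 1, however, only 19 members lay below their own mean, against 30 and 32 in flor replicates 2 and 3. The members were thus split nearly evenly in that sample. In wine replicates 1 to 3, 10, 11 and 10 members lay below their own mean.

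**Figure D3:**
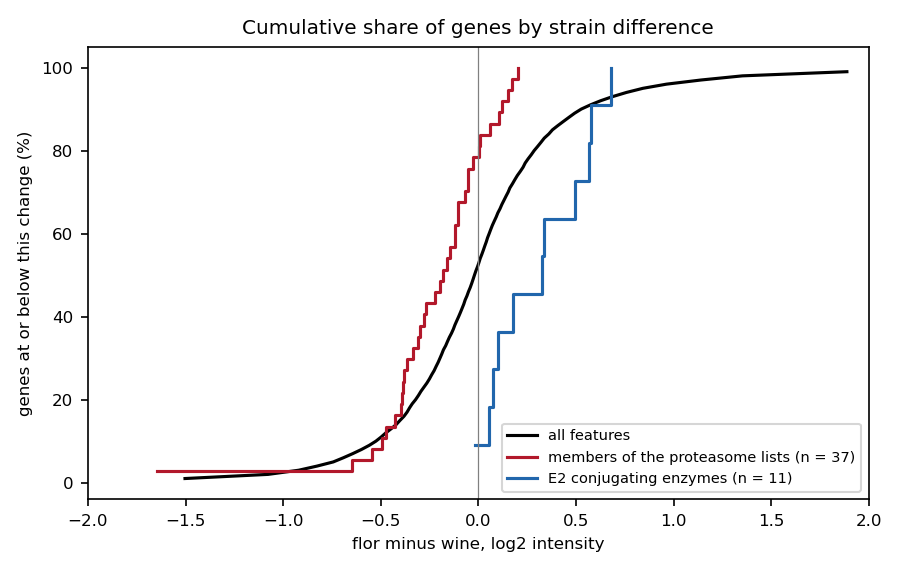
Cumulative share of genes, in percent, by flor minus wine difference in log2 intensity. The black line is all 6226 features, the red line the 37 proteasome members and the blue line the 11 genes of E2 conjugating enzymes. The red line crosses 50% at −0.18 and ends at 0.21, while the black line crosses 50% at −0.02 and the blue line at 0.32. The axis stops at −2 and 2, which leaves out features with larger differences.

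Upstream of the proteasome, ubiquitin is activated by an E1 enzyme, passed to E2 conjugating enzymes and attached to substrates with E3 ligases. Shuttle proteins and the Cdc48 unfoldase then bring substrates to the proteasome, and deubiquitinating enzymes recycle the tag. Over 7 lists of such genes, 73 genes had a row, of which 14 (19.2%) were lower and 10 (13.7%) higher in the flor strain, against the 23.6% and 20.5% of all features given above. The proteasome genes outside the rule, SEM1, UBP6, HUL5 and STS1, did not pass (−0.22 to 0.29). Without flor replicate 1, however, HUL5 passed as higher (0.45, adjusted p = 0.00095) and SEM1 (−0.28, adjusted p = 0.037) and UBP6 (−0.26, adjusted p = 0.040) as lower. HUL5 also passed with the replicate block (adjusted p = 0.032), and HUL5 (adjusted p = 0.0087) and SEM1 (adjusted p = 0.028) with the length trend removed.

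The single E1 gene, UBA1, was 1.72-fold lower, at 10.33, 10.82 and 10.82 in the flor samples and 11.38, 11.51 and 11.41 in the wine samples (limma adjusted p = 0.0017). The strains were well separated. Of the ubiquitin genes, UBI4, RPL40A, RPL40B and RPS31, which encode closely similar ubiquitin units, none passed (−0.09 to 0.26). Over these 5 genes, 1 was higher without flor replicate 2, against 20.3% of all features. With the length trend removed 2 were lower, against 26.5% of the features tested in that setting. Of the 11 E2 genes, 4 were higher (36.4%, against 20.5% of all features) and none was lower (against 23.6%), with a median of 0.32. UBC8, the E2 of the degradation of gluconeogenic enzymes, was 1.60-fold higher, at 10.91, 10.61 and 10.41 against 10.02, 9.89 and 9.98 (adjusted p = 0.0022). UBC13, an E2 of DNA damage tolerance, was 1.49-fold higher (adjusted p = 0.0050). UBC4, an E2 for short-lived and abnormal proteins, was 1.48-fold higher (adjusted p = 0.0024), and CDC34, the E2 of the cell-cycle ligase SCF, was 1.41-fold higher (adjusted p = 0.0077). UBC4 has a close paralogue, UBC5 (0.18, adjusted p = 0.13), and the probes may not separate them. In these 4 genes every flor value lay above every wine value, and flor replicate 1 was the highest sample.

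Of 24 E3 genes, 7 were lower (29.2%) and 3 higher (12.5%), against 23.6% and 20.5% of all features (median −0.03). ASI1, a ligase of the inner nuclear membrane, was 2.96-fold lower, at 6.71, 6.79 and 6.83 against 8.28, 8.39 and 8.36 (limma adjusted p = 8.8e-07). RAD5, the ligase that works with Ubc13, was 1.49-fold higher (adjusted p = 0.00061). RSP5, the ligase of many plasma membrane transporters, was 1.36-fold lower (adjusted p = 0.0096). MET30, the substrate receptor of an SCF ligase, was 1.32-fold higher (adjusted p = 0.025), and lost its call without flor replicate 2 (0.072) or 3 (0.084) or wine replicate 1 (0.087), 2 (0.0501) or 3 (0.084). Without flor replicate 1, 6 of the 24 E3 genes were higher, against 24.1% of all features. Only 1 was higher without flor replicate 2 or 3 or wine replicate 1 or 3, against 15.6% to 20.3% of all features. Without wine replicate 2, 4 were lower, against 17.3% of all features. With the length trend removed 6 were higher and 4 lower, against 23.4% and 26.5% of the features tested in that setting.

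The shuttle genes DSK2 and RAD23 were lower. DSK2 was 1.86-fold lower, at 9.30, 9.96 and 9.79 against 10.50, 10.68 and 10.54 (limma adjusted p = 0.0017). RAD23 was 1.51-fold lower, at 9.28, 9.80 and 9.67 against 10.05, 10.27 and 10.22 (adjusted p = 0.0068; 0.075 on array number 2 alone). UBX2, which recruits Cdc48 to the endoplasmic reticulum membrane, was 1.55-fold lower (adjusted p = 0.0083). Of the 9 genes of the Cdc48 complex and shuttles, 3 were lower (33.3%, against 23.6% of all features) and none was higher. Without flor replicate 1, 4 were lower and 1 higher, against 28.5% and 24.1% of all features. CDC48 itself differed by −0.31 (adjusted p = 0.086), and flor replicate 1 was the lowest sample for DSK2, RAD23, UBX2 and CDC48.

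Of 17 genes of deubiquitinating enzymes, 3 were lower and 3 higher (17.6% each, against 23.6% and 20.5% of all features; median −0.11). UBP3 was 1.81-fold lower, at 7.56, 7.90 and 7.74 against 8.45, 8.66 and 8.66 (limma adjusted p = 0.00027). UBP14, whose product takes apart free ubiquitin chains, was 1.49-fold lower (adjusted p = 0.0018). UBP11 was 1.67-fold higher (adjusted p = 0.00015) and YUH1, a ubiquitin hydrolase gene, 1.51-fold higher (adjusted p = 0.0058). All 4 had separate strains. Without flor replicate 1, 5 of the 17 were lower, against 28.5% of all features. With any other single sample left out the higher and the lower genes numbered 2 or 3 each. In those settings 15.5% to 20.3% of all features were higher and 17.3% to 22.4% lower.

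**Figure D4:**
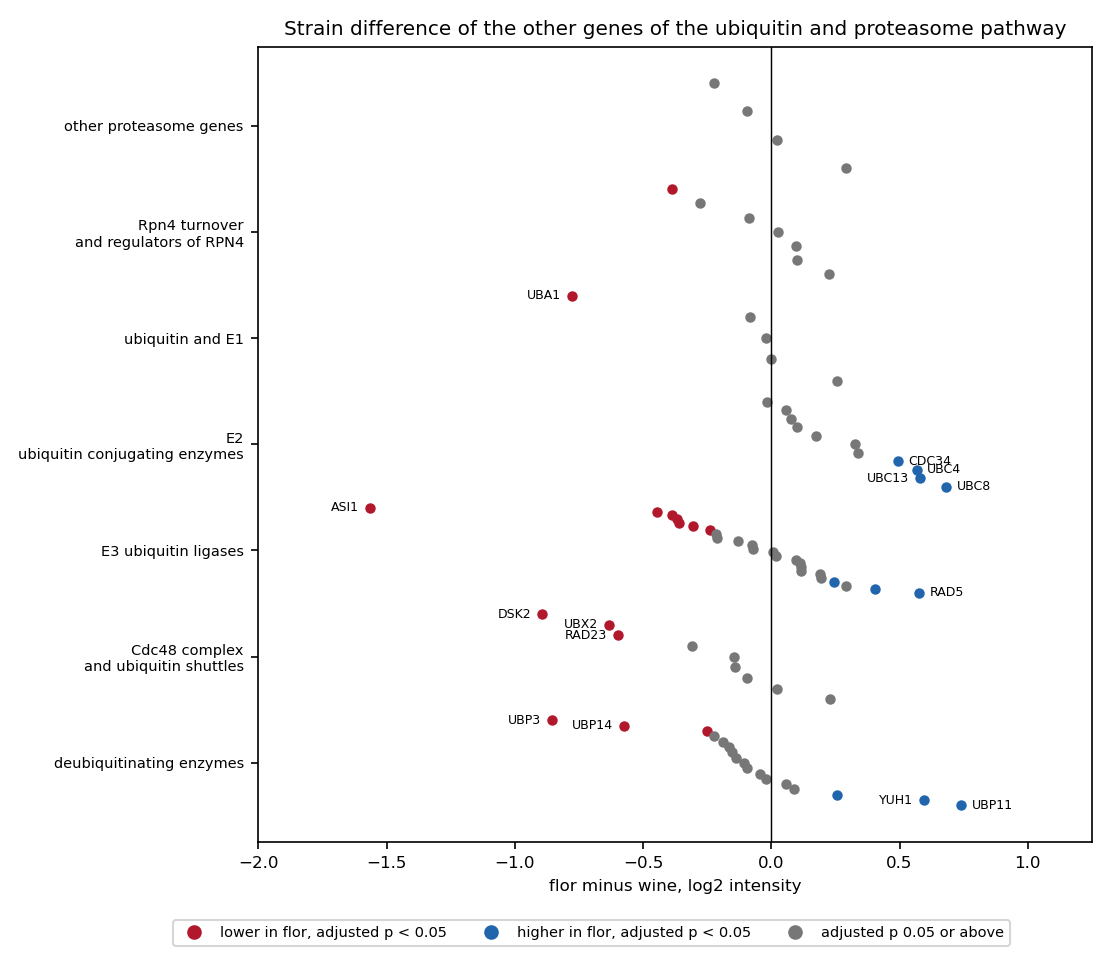
Strain difference, flor minus wine in log2 intensity, of the other genes of the pathway in 7 lists. Each point is a gene (a gene on several lists appears in each), red and blue mark genes lower and higher in the flor strain past the threshold, and names are given for called genes with the largest differences. All 4 called E2 genes lie to the right of 0, the 3 called genes of the Cdc48 and shuttle list lie to the left, and the E3 and deubiquitinating lists hold both.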

How the data were processed

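The authors deposited 1 log2 intensity for each of 6227 probes and 6 samples. The log2 scale was read from the values (5.29 to 15.88). Sample medians were nearly equal (8.33 to 8.35), and the samples were taken as normalized before deposit. R 2.14.2 and limma were used upstream, per the submitters' processing notes. The sources used here do not state the background correction, the normalization method or any filter. Normalization removes differences in total RNA, so changes are relative to other genes.

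The platform annotation named 4061 probes with 1 symbol, 0 with several and 2166 with none. The R64 gene annotation updated 125 older symbols, UBC7, SLX5 and UBX2 among them. Rows of 1 symbol were averaged, which left 6226 features, with no intensity filter.

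Flor minus wine was fitted to all 6 samples with lmFit and eBayes (limma 3.58.1, R 4.3.3), two-sided, and adjusted by Benjamini-Hochberg over all features at 0.05. Folds are powers of 2 of log2 differences with 95% intervals. The fit was tested on simulated data. Members and lists were chosen with earlier results of these data known. Values in each sample are given for RPN4 and, per role group, for up to 3 members with the largest difference and the 1 with the smallest; from each related list up to 4 called genes with the largest difference are named. PRE4, PRE7 and others beyond these were named after their values were seen. Replicate 2 of each strain is labelled technical replicate 2, and its partner was not analysed here. The replicate numbers were not taken as pairs in the main fit, because no source names such a block. Deviations from strain means of samples with the same replicate number correlated at 0.37, 0.23 and 0.05. Samples with different numbers were not compared in this way, so these values do not settle whether the numbers mark pairs. Promoter and protein sequences were not used here.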

Additional observations from a re-analysis of the deposited data

How the results depend on the processing

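Of the 14 called members, 3 (PRE8, RPT6 and RPT4) passed in all 16 alternative settings with a test, and 11 lost the call in at least 1. No member passed as higher in any of them. The number of lower members was 3 on array number 2 alone (against 11.6% of all features) and 8 at an adjusted p under 0.01 (14.8%). It was 9 to 17 with single samples left out (17.3% to 28.5%) and 13 to 16 in the others (22.1% to 27.1%). With the replicate block 16 members were lower. Without the dimmest 50%, 13 of 36 members were lower. The median was −0.21 on array number 1 alone and −0.23 to −0.16 with single samples left out. The related genes called lower were 7 on array number 2 alone and 9 without the dimmest 50% of features, a setting that leaves fewer of these genes. The shares of all features lower in these settings were 11.6% and 26.9%. Signs turned in uncalled genes near 0. On array number 1 alone ECM29 was at −0.085. On array number 2 alone PRE6 was at −0.0013, PUP3 at 0.0062, RPT2 at 0.026 and RPN8 at −0.033. With centring on the median PRE6 was at −0.0049 and RPN8 at −0.0071. With the length trend removed PRE6 was at −0.050, UMP1 at −0.012, RAD6 at −0.037 and YAP1 at 0.034. With single samples left out PRE6 ranged from −0.052 to 0.094, RPN8 from −0.056 to 0.042, RPN9 from −0.15 to 0.054, RPT2 from −0.096 to 0.012, RPN13 from −0.17 to 0.029 and PDR1 from −0.0059 to 0.073. The cause of these shifts was not tested. No member had several rows, so the test of single rows was not run.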

Other observations

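The neighbours of PRE8 and RPN4 in the gene order of the R64 reference were read because these genes had the largest decreases, and were chosen after those values were seen. Beside PRE8, RPM2 differed by −0.33 (limma adjusted p = 0.013) and UTP14 by −0.22 (adjusted p = 0.059). UFO1, an F-box gene of a ubiquitin ligase that lies next to RPM2, differed by 0.32 (adjusted p = 0.0079). Beside RPN4, the phosphoglycerate mutase homologue gene GPM2 was higher in the flor strain by 1.08 (adjusted p = 7.4e-06) and OSH2 was lower by −0.36 (adjusted p = 0.0085). No neighbour within 3 genes on either side that had a named row had a difference as low as that of the member beside it.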
